A study of Mus musculus with 3 samples.

Results

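The 10 mouse genes described here (Ptpn2, Glis3, Tyk2, Clec16a, Bach2, Ptpn22, Il2ra, Ctla4, Ctsh and Erbb3) correspond to human genes named at loci of type 1 diabetes risk. The rule that picks them uses no measured value, but the genes were chosen with earlier results of these data known. All 10 were found among 22208 protein-coding genes of chromosomes 1 to 19 and X in the GENCODE M1 annotation of the mm9 genome. The readout was H3K4me1 ChIP-seq, in which an antibody pulls down chromatin with monomethylated lysine 4 of histone H3 for sequencing. It was measured in 1 library of mouse pancreatic islets cultured for 4 days with cytokines, where IFNγ was given at 1.6 ng/ml, Il-1β at 0.25 ng/ml and TNFα at 0.16 ng/ml. The labels give CD1 mice of 8 to 12 weeks, the paper names them ICR with a narrower range of ages, and islets of at least 10 mice of both sexes and DNA of 4 ChIP experiments went into the pool. The deposited list gives 65709 enriched regions by position alone, so neither the depth nor an error is known for any region. Untreated islets and RNA values were not analysed here, and nothing below separates the effect of the cytokines from the state of the islets before them. Regions were counted for a gene when they overlapped it or came within 50 kb of any of its annotated transcription start sites (TSS). By this rule 135 regions, or 0.205% of the list, belonged to the 10 genes.

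H3K4me1 is found at enhancers and around promoters, in active as well as poised chromatin, and its pattern over distal sequence differs strongly between cell types. Type 1 diabetes is the autoimmune loss of insulin-producing β-cells, and the genes at its risk loci fall into those known chiefly from lymphocytes, which carry out the attack, and those that also act in the β-cell. Glis3 encodes a Krüppel-like zinc finger transcription factor needed for β-cell development and insulin gene transcription, and Ptpn2 a tyrosine phosphatase that dampens JAK and STAT signaling, including that set off by IFNγ in β-cells. Ptpn22 encodes a phosphatase that restrains T-cell receptor signaling, Il2ra the α-chain of the interleukin-2 receptor and Ctla4 an inhibitory receptor of T cells. The other 5 genes are used more broadly: Bach2 encodes a transcriptional repressor of B and T cells that is also expressed elsewhere, Tyk2 a Janus kinase, Clec16a a protein of endosomes and mitophagy, Ctsh the lysosomal protease cathepsin H and Erbb3 a receptor of the neuregulins.

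With the reach of 50 kb, H3K4me1 regions covered the largest shares of sequence at Glis3 and Ptpn2. None lay over a TSS of Ptpn22, Il2ra or Ctla4. Every one of the 10 genes had at least 1 region by the rule, as did 82.3% of all protein-coding genes, and the number per gene ranged from 4 at Ctla4 to 46 at Glis3 with a median of 10.5, against 5.0 over all protein-coding genes. A region overlapped the gene itself for 8 of the 10, whereas this was so for 64.6% of all protein-coding genes, and the exceptions were Ctla4 and Tyk2. A region lay over an annotated TSS of 5 of the 10, namely Glis3, Ptpn2, Bach2, Clec16a and Erbb3, where the share among all protein-coding genes was 39.3%. For the 5′ most TSS of each gene the number was 4 of 10 against 31.1%. With 10 genes, neither count stands clear of these shares, and no test was made because the library has no replicate.

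The covered share, which is the percentage of bases of the window (the gene and 50 kb around each TSS) that lie inside regions, put the genes in the order Glis3 (34.7%), Ptpn2 (25.9%), Tyk2 (23.6%), Erbb3 (20.3%), Clec16a (18.6%), Il2ra (13.1%), Ptpn22 (10.4%), Ctsh (9.87%), Bach2 (8.48%) and Ctla4 (7.69%). The median over the 10 was 15.9% and that over all protein-coding genes was 6.87%, with a 90th percentile of 24.2%. With a reach of 20 kb the share of Ctla4 was 0.643%, that of Ctsh 2.78%, that of Ptpn22 6.52% and that of Tyk2 14.3%, which placed Tyk2 below Clec16a (21.0%) and Erbb3 (20.5%). With a reach of 100 kb Tyk2 (20.4%) stood above Ptpn2 (18.4%) and Erbb3 (18.2%). Which neighbours in such an order differ is not known, since there is 1 library and no spread. The share of the gene body alone gave another picture for several of them: 38.6% for Glis3, 30.9% for Ptpn2, 20.2% for Clec16a, 16% for Erbb3, 12.3% for Il2ra, 9.1% for Bach2, 2.73% for Ctsh, 2.29% for Ptpn22 and 0 for Ctla4 and Tyk2. Tyk2 therefore owed its high place to regions outside the gene, most of them at its neighbours.

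**Figure D1:**
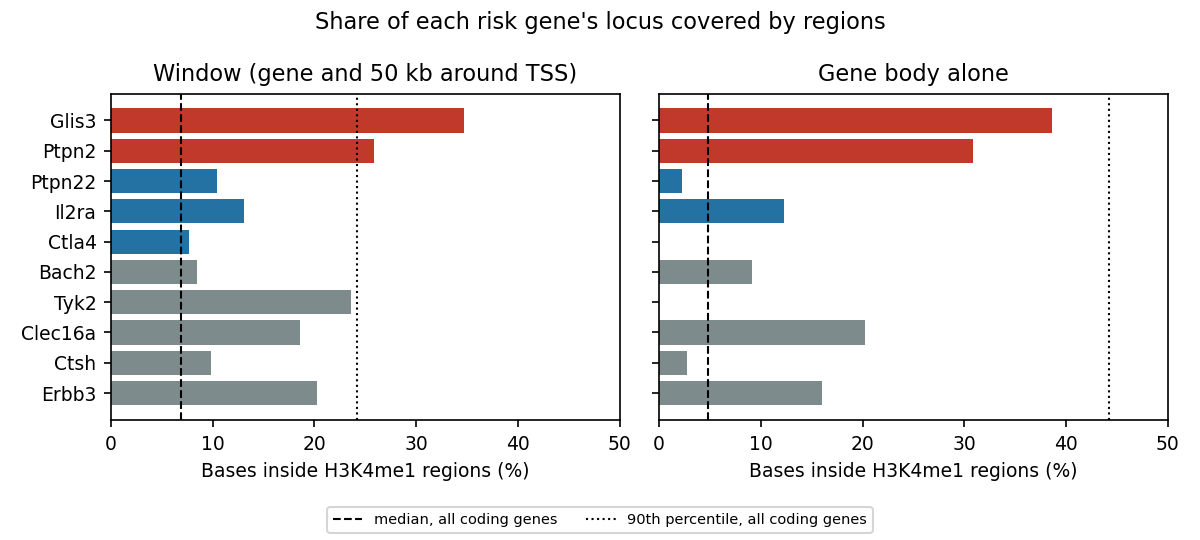
Percentage of bases inside H3K4me1 regions for the window (left) and the gene body (right) of each risk gene in the cytokine treated library, with Glis3 and Ptpn2 in red, lymphocyte genes in blue and broadly used genes in grey; the dashed and dotted lines are the median (6.87% and 4.8%) and 90th percentile (24.2% and 44.2%) of all protein-coding genes. Glis3 and Ptpn2 have the longest bars in both panels, and Tyk2 and Ctla4 have no covered base in the gene body.

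Ptpn2 is at chr18:67825165-67884249 (minus strand), with 4 annotated TSS positions. It had 11 regions by the rule, 5 of them overlapping the gene, and its covered share stood at the 91.6 percentile of all protein-coding genes. A region of 4.2 kb, from 67881001 to 67885200, covered the 3 TSS positions of coding transcripts together with coding sequence and UTR. Behind it, intron 1 held a further region of 4.2 kb, intron 2 held 1 of 2.8 kb, and regions of 1.4 and 6.6 kb reached coding exons. The only TSS left uncovered was an internal one of a non-coding transcript, 5323 bp from the nearest region. Upstream of the gene, 3 regions of 0.2 to 1.8 kb lay between 11.2 and 20.8 kb from the 5′ most TSS with Ptpn2 as the closest coding gene. The widest region of the window, 11.2 kb at 39.0 kb upstream, lay closer to the TSS of Seh1l, a nuclear pore gene. It counted towards the covered share of Ptpn2 all the same.

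Glis3 is at chr19:28333341-28754567 (minus strand) and has 9 annotated TSS positions over its 421.2 kb. Its 46 regions covered 172.0 kb, a share at the 97.4 percentile of all protein-coding genes, and its number of regions was at the 99.9 percentile, in a window of 496.2 kb where the median window is 100.3 kb. Of the 46, 42 overlapped the gene and 45 had a Glis3 TSS as the closest coding TSS, so that few of them could be counted to a neighbour. The widest, of 24.8 kb from 28727801 to 28752600, was wider than 99.8% of all 65709 regions and covered an alternative TSS at 28741175. It stopped 1967 bp short of the 5′ most TSS at 28754567, and the next region began 2434 bp upstream of that TSS, leaving 4.4 kb with no region in which 3 coding TSS positions lay. A second covered site, from 28372401 to 28376400, held the TSS positions 28374868 and 28374915 near the 3′ end. Between these, the regions lay mostly in 2 introns of the transcript with the longest coding sequence, with 20 in intron 4 and 14 in intron 2. An 18.4 kb region in intron 4 (28523001 to 28541400) and an 11.2 kb region in intron 2 (28694201 to 28705400) were the next widest.

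**Figure D2:**
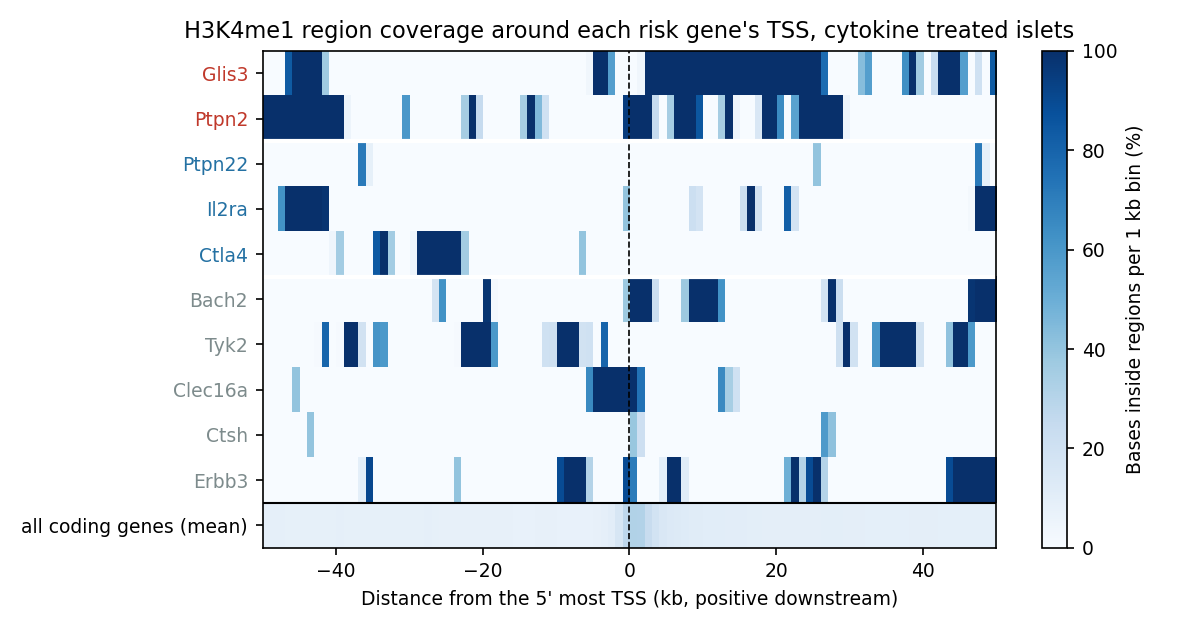
Percentage of bases inside H3K4me1 regions in bins of 1 kb from 50 kb upstream to 50 kb downstream of the 5′ most TSS of each risk gene, on the gene's strand, with the mean of all protein-coding genes in the bottom row. Glis3 is covered without a break from 5 to 20 kb downstream, Ptpn2 is covered at the TSS and in blocks after it, and the rows of Ptpn22, Il2ra and Ctla4 are almost empty within 5 kb of the TSS.

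The 3 lymphocyte genes had 20 regions together, of which 6 overlapped a gene and none covered any of their 9 annotated TSS positions. Ptpn22, at chr3:103663718-103716170 (plus strand), had 10 regions, but only 2 of them, of 0.4 and 0.8 kb, lay in the gene. No region was listed over 61.4 kb from 103627801 to 103689200, which holds both coding TSS positions. Of the 8 others, 7 overlapped Rsbn1, the next gene downstream, among them the widest of the window at 6.4 kb, and these 7 entered the window through internal non-coding TSS positions of Ptpn22. With the window drawn from its coding TSS positions alone, Ptpn22 had 3 regions and a covered share of 1.95% in place of 10.4%. Il2ra, at chr2:11564419-11614818 (plus strand), had 6 regions. A region of 0.4 kb ended 419 bp upstream of its 5′ most TSS, 3 regions of 0.4 to 1.4 kb lay in intron 1, and a region of 3.4 kb (11611401 to 11614800) lay over the last coding sequence and UTR, nearest to the TSS of Il15ra, which encodes the α-chain of the interleukin-15 receptor. The sixth, of 6.6 kb, lay in Rbm17 at 41.0 kb upstream. Ctla4, at chr1:60943844-60972676 (plus strand), was free of regions, and its 4 lay upstream, towards Cd28, which encodes the activating counterpart of Ctla4 on T cells. The widest of these ran for 6.4 kb from 60914801 to 60921200, or 22.6 kb upstream of the 5′ most TSS, and the nearest, of 0.4 kb, was 6.4 kb upstream. From 60937401 to 61049200, a stretch of 111.8 kb that includes all of Ctla4 and the start of Icos, no region was listed.

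The promoters of the lymphocyte genes held few CpG dinucleotides, and 2 promoters inside regions are shown beside them for contrast, those of Bach2 and Erbb3. Each line gives the 250 bases before the TSS on the gene's strand, read from the mm9 genome, with CpG dinucleotides in capitals. The positions are chr3:103663468-103663717 for Ptpn22, chr2:11564169-11564418 for Il2ra, chr1:60965619-60965868 for Ctla4 (before its 5′ most coding TSS), chr4:32325529-32325778 for Bach2 and chr10:128026709-128026958 for Erbb3, which is on the minus strand. No base of the first 3 lay in a region and all bases of the last 2 did. They hold 5, 3, 7, 35 and 13 CpG dinucleotides in this order.
Ptpn22: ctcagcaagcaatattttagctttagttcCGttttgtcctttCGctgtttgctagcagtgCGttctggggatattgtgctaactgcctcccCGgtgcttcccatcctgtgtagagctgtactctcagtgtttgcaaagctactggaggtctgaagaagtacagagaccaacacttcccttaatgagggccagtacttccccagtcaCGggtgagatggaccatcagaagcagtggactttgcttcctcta
Il2ra: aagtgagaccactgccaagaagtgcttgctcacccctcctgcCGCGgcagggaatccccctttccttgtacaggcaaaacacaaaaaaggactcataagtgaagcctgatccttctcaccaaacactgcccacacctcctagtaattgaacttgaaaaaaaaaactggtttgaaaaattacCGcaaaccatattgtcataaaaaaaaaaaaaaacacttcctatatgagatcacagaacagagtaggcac
Ctla4: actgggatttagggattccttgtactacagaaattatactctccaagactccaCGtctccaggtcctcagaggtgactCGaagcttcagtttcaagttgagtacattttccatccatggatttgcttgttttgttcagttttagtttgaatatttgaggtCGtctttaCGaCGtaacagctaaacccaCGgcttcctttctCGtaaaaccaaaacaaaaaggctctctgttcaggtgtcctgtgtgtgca
Bach2: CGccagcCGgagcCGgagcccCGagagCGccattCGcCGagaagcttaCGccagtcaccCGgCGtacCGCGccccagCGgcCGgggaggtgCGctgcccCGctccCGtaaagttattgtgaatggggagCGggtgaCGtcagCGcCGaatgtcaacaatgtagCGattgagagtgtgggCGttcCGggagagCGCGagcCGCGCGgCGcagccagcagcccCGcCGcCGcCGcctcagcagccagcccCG
Erbb3: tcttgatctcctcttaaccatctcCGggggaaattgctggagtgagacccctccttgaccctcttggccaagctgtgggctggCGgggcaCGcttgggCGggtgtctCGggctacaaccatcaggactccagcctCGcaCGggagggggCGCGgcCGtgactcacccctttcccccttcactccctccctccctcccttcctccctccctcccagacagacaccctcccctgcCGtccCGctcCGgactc

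Set side by side, the genes known in β-cells and the lymphocyte genes did not overlap in the covered shares. The number of regions was 11 and 46 against 4, 6 and 10, but Ptpn2 and Ptpn22 both had 10 without regions under 400 bp, and with a reach of 100 kb Ptpn2 had 17 and Ptpn22 had 18. The covered share of the window was 25.9% and 34.7% for Ptpn2 and Glis3, and 7.69%, 10.4% and 13.1% for Ctla4, Ptpn22 and Il2ra, with means of 30.3% and 10.4% and a difference of 19.9 percentage points. The median over all protein-coding genes was 6.87%, and Ctla4, Ptpn22 and Il2ra stood at percentiles 53.3, 62.6 and 70.1. For the gene body the means were 34.7% and 4.86%, a difference of 29.9 points, where the median over all protein-coding genes was 4.8%. A region covered a TSS of both Glis3 and Ptpn2 and of none of the 3 lymphocyte genes, where 39.3% of all protein-coding genes had such a region. Pooled over genes, the member was the closest coding gene for 53 of 57 regions at Glis3 and Ptpn2. At the lymphocyte genes it was so for 10 of 20. By gene the groups overlapped, with 45 of 46 at Glis3 and 8 of 11 at Ptpn2. The counts were 4 of 4 at Ctla4, 4 of 6 at Il2ra and 2 of 10 at Ptpn22. The difference in covered share was largest from 5 to 20 kb downstream of the 5′ most TSS, where Glis3 and Ptpn2 averaged 75.8%, the lymphocyte genes 4.0% and all protein-coding genes 10.9%. Within 5 kb on either side of the TSS, Glis3 had 56.0%, Ptpn2 42.0%, Il2ra 4.0% and both other lymphocyte genes 0, where the average was 19.1%. From 5 to 20 kb upstream, Glis3 (0.22%) was below Ctla4 (2.67%), and the mean of 6.78% for Glis3 and Ptpn2 was below the 7.8% of all protein-coding genes. From 20 to 50 kb upstream the order was mixed as well, with 44.2% at Ptpn2, 30% at Ctla4, 22.0% at Il2ra, 17.3% at Glis3 and 2.67% at Ptpn22, and 8.39% over all protein-coding genes. Genes are not replicates of a condition, the groups hold 2 and 3 genes chosen for what is known of them, and no test was made. Without Glis3 the difference was 15.5 points and without Ptpn2 it was 24.3. With Ctsh and Clec16a counted among the genes known in β-cells it was 11.8 points, and the groups then overlapped, since the share of Ctsh is below those of Ptpn22 and Il2ra. With Bach2 counted among the lymphocyte genes the difference was 20.3 points. The contrasts in TSS and in number of regions then no longer held. Bach2 has 4 of 8 TSS positions covered, and 20 regions against 11 at Ptpn2.

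Among the 5 broadly used genes, 3 had a region over the 5′ most TSS and 2 did not. Bach2, at chr4:32325779-32673083 (plus strand), had 20 regions, 17 of them in the gene, a number at the 98.6 percentile of all protein-coding genes, while its covered share of 8.48% was at the 56.1 percentile. A region of 3.6 kb covered 3 TSS positions at the 5′ end and another of 5.0 kb, the widest of the locus, covered a further TSS at 32334739. Clec16a, at chr16:10545457-10744971 (plus strand), shared a region of 7.4 kb (10539801 to 10547200) with Dexi, the divergent gene at its 5′ end, and this region covered the Dexi TSS and 5 of the 8 TSS positions of Clec16a. A second group of 5 regions began 95.5 to 127.1 kb into the gene, and 4 of these, with 23.8 kb together, were in intron 19. The 3 regions nearest the 3′ end of Clec16a lay closer to the TSS of Socs1, an inhibitor of JAK and STAT signaling, than to any coding TSS of Clec16a. Erbb3, at chr10:128004579-128026708 (minus strand), was covered by a region of 1.6 kb at its only TSS, and had 1 of 2.2 kb over a coding exon 4.9 kb downstream and 1 of 4.2 kb at 5.7 kb upstream. The other 5 of its 8 regions were closer to Pa2g4, Zc3h10, Rps26 or Gm9182, including 1 that overlapped the UTR at the 3′ end of Erbb3.

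Tyk2 and Ctsh had no region over the TSS. Tyk2, at chr9:20908521-20931790 (minus strand), held none in the gene or over the 31.8 kb from 20903001 to 20934800, which holds its only annotated TSS. The nearest region, of 0.8 kb, lay 3.0 kb upstream, followed by 1 of 0.2 kb and 1 of 3.4 kb. The other 8 of its 11 regions were closer to Raver1, Fdx1l, Cdc37 or Pde4a, and those over the TSS of Raver1 (5.8 kb) and Cdc37 (4.6 kb) were the widest. Ctsh, at chr9:89948990-89970927 (plus strand), had 5 regions, 1 of them in the gene: a region of 0.6 kb in intron 1 that began 611 bp downstream of the 5′ most TSS and 225 bp from the nearest one. The 9.0 kb region that made up most of its covered share lay in Morf4l1, and with the window drawn from coding TSS positions alone the covered share of Ctsh was 2.37% in place of 9.87%.

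The median width was 2000 bp over the 57 regions of Glis3 and Ptpn2 and 900.0 bp over the 20 of the lymphocyte genes, with 1600 bp over 58 regions at the other genes and 1200 bp over the whole list. Regions of at least 5 kb made up 24 of the 135 (17.8%), against 8.78% of the whole list, and 12 of these 24 lay at Glis3. At the lymphocyte genes there were 3 such regions of 20 (15.0%), and none of them overlapped the gene. At the narrow end, 8 of the 135 were a single bin of 200 bp, as were 2.95% of the whole list, with 5 of the 8 at Glis3 and Ptpn2 and none at the lymphocyte genes. All positions of the list fall on a grid of such bins.

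**Figure D3:**
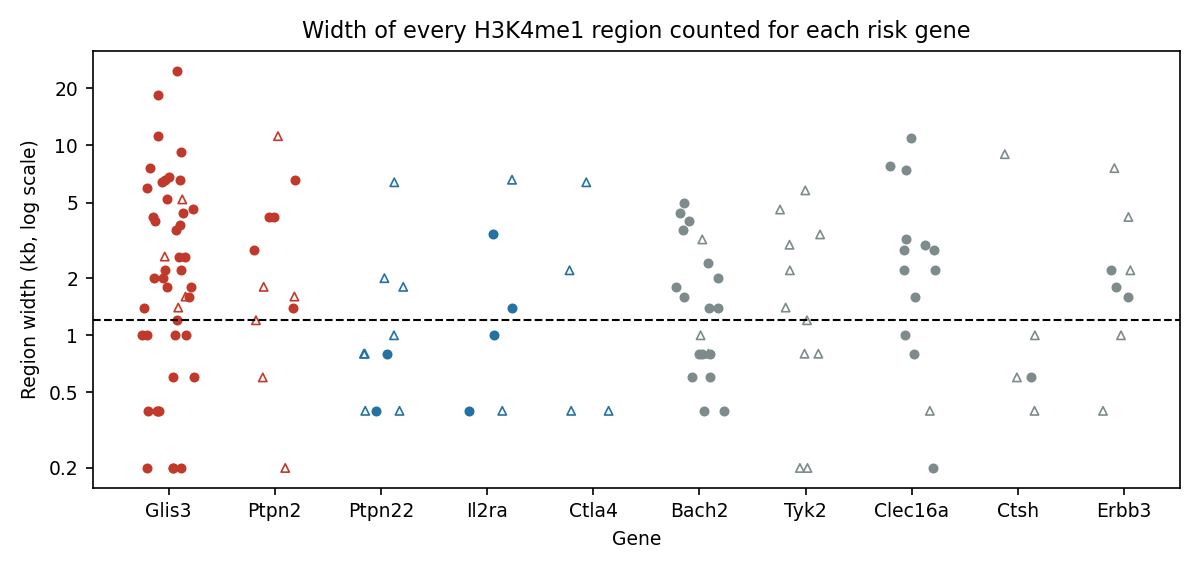
Width of each of the 135 H3K4me1 regions, on a log axis in kb, by the gene it was counted for; filled circles overlap the gene, open triangles lie outside it, and the dashed line is the median of all 65709 regions (1.2 kb). The widest points are those of Glis3, at 24.8 and 18.4 kb, and every lymphocyte gene region over 5 kb is an open triangle.

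The CpG content of the promoter sorted the genes much as the regions did. In the 300 bases from 250 before to 50 after the 5′ most TSS, the ratio of observed to expected CpG was 1.17 at Clec16a, 1.12 at Bach2, 0.804 at Ptpn2, 0.774 at Glis3 and 0.64 at Erbb3, all genes with a covered TSS, although at Glis3 this is not the 5′ most. It was 0.379 at Ctla4, 0.378 at Ptpn22, 0.231 at Il2ra, 0.227 at Tyk2 and 0.122 at Ctsh, which had none. Before the 5′ most coding TSS of Ctla4 it was 0.609, with 8 CpG dinucleotides in the 300 bases. When all protein-coding genes were put in 4 groups of nearly equal size by this ratio, the 5′ most TSS was covered in 7.67% of the lowest group, 28.5% and 47.9% of the middle groups and 40.5% of the highest. A region came within 2 kb of this TSS in 15.9%, 46.4%, 82.9% and 90.1% of the groups in the same order, so an uncovered TSS often had a region nearby. Ctsh fell in the lowest group, and Ptpn22, Il2ra, Ctla4 and Tyk2 in the next. By its 5′ most coding TSS, Ctla4 would fall in the group from 0.536 to 0.811, of which 47.9% were covered. The part of CpG content in the missing regions at their promoters was not tested.

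**Figure D4:**
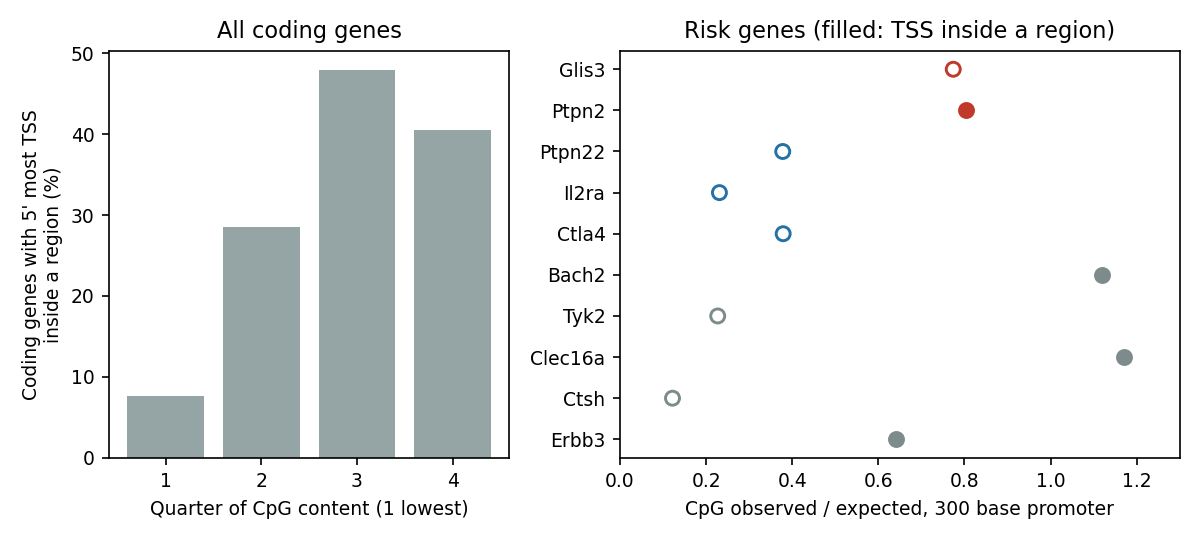
Left, percentage of protein-coding genes whose 5′ most TSS lies inside an H3K4me1 region, by 4 groups of nearly equal size in the observed over expected CpG ratio; right, this ratio for each risk gene, filled where the 5′ most TSS lies inside a region. The filled points of Ptpn2, Bach2, Clec16a and Erbb3 lie at 0.64 or above, and the open point of Glis3 (0.774) is the only open one in that range.

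Sequence motifs of factors that act in cytokine signaling were searched on both strands, and matches of different motifs may overlap. In the 300-base promoters, the interferon gamma activated site TTCNNNGAA was found at 1 of the 10 genes (Ctla4, at its 5′ most TSS) and in 7.94% of all 22203 protein-coding promoters searched. GGGANTTTC, a κB motif of NF-κB, was found at Ptpn2 and in 1.13% of promoters. TGANTCA, bound by AP-1, was found at Erbb3 and in 6.93%. GAAANNGAA, the core of the interferon stimulated response element, was found at none of the 10 and in 8.94%. Before the 5′ most coding TSS of Ctla4, the promoter printed above, this core was found once and the activated site was not. Inside the 135 regions the κB motif occurred 15 times, in 14 regions, or 0.0389 times per kb against 0.0378 per kb over all regions of the list. The activated site occurred 0.396 times per kb against 0.332, the response element core 0.438 against 0.373 and the AP-1 motif 0.433 against 0.366. The activated site occurred 0.416 times per kb at Glis3 and Ptpn2 and 0.642 times, from 24 matches, at the lymphocyte genes, while the AP-1 motif occurred 0.431 and 0.348 times per kb. These rates have no error, and a match is a run of letters and not a bound site. To show such matches in regions described above, a κB match from each set of genes is given with 26 bases on either side on the plus strand of mm9, with the motif in capitals: from the 11.2 kb region in intron 2 of Glis3 (chr19:28702578-28702638), from the 6.4 kb region upstream of Ctla4 (chr1:60917562-60917622, where the motif is on the minus strand) and from the 3.4 kb region upstream of Tyk2 (chr9:20940521-20940581).
Glis3: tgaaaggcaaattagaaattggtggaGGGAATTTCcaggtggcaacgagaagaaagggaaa
Ctla4: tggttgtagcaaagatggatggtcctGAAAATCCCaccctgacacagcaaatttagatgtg
Tyk2: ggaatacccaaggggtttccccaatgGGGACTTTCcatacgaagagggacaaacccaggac

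Other genes at loci of type 1 diabetes risk were covered about as much as the average gene. Of 30 such genes, 15 had a region over a TSS (39.3% of all protein-coding genes did) and 23 a region in the gene (64.6% did), and the median covered share was 7.49% against 6.87% over all protein-coding genes and 15.9% over the 10 described above. The highest shares were at Cyp27b1 (31.1%), which encodes the enzyme that activates vitamin D, Il27 (27.7%), a cytokine gene, and Ikzf3 (25%), a lymphocyte transcription factor gene. No region fell in the windows of Cd226, Il7r, Rgs1 or Tagap, genes known from lymphocytes. Of 27 genes of proteins that act with the 10 or belong to their families, 12 had a region over a TSS and 24 a region in the gene, and the median covered share was 14.2%. The highest were Stat5a (58.1%), Stat5b (38.4%) and Stat3 (38.2%), neighbouring genes on chromosome 11 with windows that overlap, which encode transcription factors activated by Janus kinases. Among genes that carry the IFNγ signal, the shares were 28.2% for Jak1 and 12.4% for Jak2, which encode Janus kinases, and no region covered a TSS of either. The lowest were Zap70 (1.2%) and Cd28 (1.42%), which act in T-cell receptor signaling, and Nrg1 (1.49%), a ligand gene of the Erbb3 receptor.

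Markers of the cell types that isolated islets can hold were measured in the same way. The counts with a covered TSS stand beside a share of 39.3% among all protein-coding genes. β-cell markers had a median covered share of 25.3% (12 genes), with the highest at Mafa (41.0%), Neurod1 (39.0%) and Pdx1 (38.6%) and the lowest at Ins2 (4.17%), Ins1 (9.0%) and Nkx6-1 (11%), and 5 of 12 had a region over a TSS. The shares of all 10 risk genes lie inside this wide range. T-cell markers had a median of 6.11% (12 genes, 2 with a covered TSS, from 0 at Cd2, 1.2% at Zap70 and 1.42% at Cd28 to 16.8% at Cd4 and 21.9% at Cd5). A region overlapped the gene for 5 of the 12 T-cell markers, where 64.6% of all protein-coding genes had such a region. None overlapped Cd3e, Cd3d, Cd3g, Cd4 or Cd8a. B-cell markers had a median of 7.32% (8 genes, 1 with a covered TSS, from 0 at Ms4a1, 0.799% at Cr2 and 4.6% at Blk to 12.6% at Cd79a, 14.4% at Cd22 and 16.6% at Cd79b). Macrophage markers had a median of 7.34% (8 genes, 1 with a covered TSS), from 0 at Emr1 and Itgam and 1.4% at Lyz2 to 15.8% at Mpeg1, 20.8% at Cd14 and 23.2% at Cd68. Endothelial markers had a median of 1.59% (6 genes, 3 with a covered TSS), from 0 at Cdh5 and Emcn and 1.18% at Tek to 2.0% at Kdr, 2.99% at Tie1 and 27.1% at Pecam1. Acinar markers had a median of 4.96% (6 genes, none with a covered TSS), from 0.4% at Pnlip, 1.8% at Cela1 and 2.4% at Ptf1a to 7.52% at Cpa1, 12.7% at Cela2a and 37.5% at Ctrb1. In a bulk library, a region carried by few cells and a weak region in all cells cannot be told apart, so a missing region at Ctla4 or Ptpn22 says nothing of lymphocytes that may be present in small number.

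**Figure D5:**
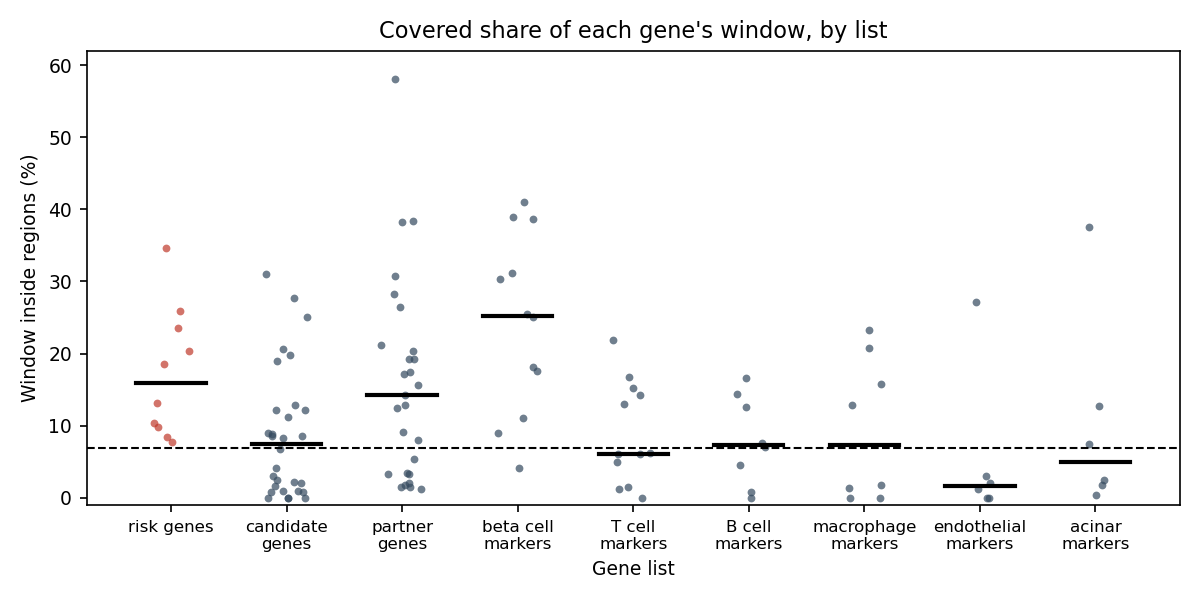
Percentage of each gene's window inside H3K4me1 regions, with 1 point a gene and a bar at the median of each list; the dashed line is the median of all protein-coding genes (6.87%). The median is 15.9% for the risk genes, 25.3% for the β-cell markers and 7.34% or less for the markers of other cell types.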

How the data were processed

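Per the labels and the paper, the authors pooled the DNA of 4 ChIP experiments on cytokine treated islets into 1 library, mapped reads to mm9 with Bowtie2 (2.2.1 in the submitters' processing notes) and identified H3K4me1 enriched regions with ChromHMM, whose settings are not given in the sources used here. The deposited file gives positions on a 200 bp grid. Whether the authors' removal of loci with low FPKM came before it is not given in the sources used here. Depth is unknown, and a region missing from the list can reflect depth, mapping or the calling threshold. No region reached past the end of its chromosome in the mm9 reference.

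Starts were made to count from 1. Genes, TSS and exons came from GENCODE M1, with the 2 Glis3 records joined, whereas the authors used UCSC transcripts. Introns were numbered in the transcript with the longest coding sequence. With 1 library no test was made, and shares among all protein-coding genes serve as background. A percentile is the share of protein-coding genes below a gene's value, with ties split evenly. The 10 genes and all lists were chosen with earlier results of these data known. From each list the 3 highest and 3 lowest covered shares are named, with all genes tied at 0, except 1 that is not reported here; Jak1 and Jak2, the T-cell receptor and coreceptor genes and genes next to a member were named in addition. Ins2 is both a candidate gene and a β-cell marker, and Lck, Zap70 and Cd28 are both partner genes and T-cell markers. Counting was tested on simulated data with known answers. Python 3.11.15, numpy 2.4.6 and matplotlib 3.10.9 were used.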

Additional observations from a re-analysis of the deposited data

How the results depend on the processing

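Alternatives were dropping regions under 400 or under 1000 bp, joining those with gaps of up to 1000 bp, a reach of 20 or 100 kb, windows without the gene body, other sets of TSS, other ways of giving a region to a gene and other gene groups. Of 39 values under an alternative, over 4 results (the number of genes with a covered TSS, the median number of regions, the median covered share, and the difference between the genes known in β-cells and the lymphocyte genes), 35 stayed within 1.5 times the reported value and 4 moved further. The median of 10.5 regions per gene became 5.0 with a reach of 20 kb, 17.5 with 100 kb and 3.5 when each region went only to the gene whose TSS was closest, up to 100 kb away; a smaller or larger window holds fewer or more regions by construction. The difference of 19.9 points fell to 11.8 with Ctsh and Clec16a counted among the genes known in β-cells, since both have lower shares. It kept its direction under all 15 alternatives tried for it, between 11.8 and 26.6 points, the highest with a reach of 20 kb and with TSS of coding transcripts alone. Windows around TSS of coding transcripts and leaving out single genes of the groups were chosen after the data were seen. No replicate could be left out, and other calling thresholds could not be tried on a list with no scores. No paired analysis was possible because only 1 library was analysed.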
